A study of Oryza sativa Japonica Group with 17 samples.

Results

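The comparison described here set the leaf transcriptome of the rice double mutant osddm1a/1b against its wild type Cr-DJ-1, and all 55986 loci of the authors' deposited table for this pair were taken as members. The mutant libraries carry osddm1a/1b in their titles and DongJin, a japonica variety, as their source. Their characteristics field names osddm1b alone. Cr-DJ-1 is DongJin material labelled as the wild type of this mutant. Both genotypes were grown without hormones on a Murashige and Skoog medium of reduced strength, and leaves were taken at day 12. Each genotype had 2 RNA-seq libraries, so 4 of the 17 samples of the series entered. The labels do not say whether repeats came from separate plants or cultures, and adjusted p-values then measure only the spread between these libraries. The sources used here do not give how the 2 mutant alleles were made or whether the line was backcrossed.

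DDM1 is a nucleosome remodeller of the SNF2 family that opens heterochromatin to DNA methyltransferases. In Arabidopsis its loss demethylates transposons and pericentromeric repeats, many of which are then transcribed, and methylation is lost further over generations of selfing. Rice carries a pair of copies, OsDDM1a and OsDDM1b. In rice chromosomes, genes are dense on the arms, and transposons are dense around the centromeres.

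The authors' deposited table gives a mean over the 4 libraries and a fold change, but no value per library. Whole reads per library were recovered from it, because only certain sets of 4 whole numbers return the deposited mean together with the deposited fold and standard error. This worked for 34610 of the 34643 loci with a mean above 0 and below 1000 (99.9%). Size factors, which measure the relative depth of a library, were 1.155 and 0.888 in osddm1a/1b and 1.103 and 0.891 in Cr-DJ-1. Reads below are given with the deeper library of each genotype first. Mean normalized counts summed to 2.61e+07 over all loci, and loci with recovered reads held 20.04% of that sum. Above a mean of 1000, reads were recovered for named loci alone. Which recovered library was repeat 1 or repeat 2 is unknown. Which pair was the mutant follows from the sign of the deposited folds, and that sign was read from OsDDM1b, so every direction below rests on that reading.

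OsDDM1b (LOC_Os03g51230) had 79 and 58 reads in osddm1a/1b, against 794 and 659 reads in Cr-DJ-1. Neither mutant library came near either wild-type library. Reads pooled over both libraries and divided by their summed size factors were 10.9-fold lower in the mutant, and the authors' deposited table gave a log2 change of -3.27 (SE 0.16). Since this gene set the direction, its fall is no check of the labels. OsDDM1a (LOC_Os09g27060) had 301 and 231 reads in osddm1a/1b, against 336 and 241 reads in Cr-DJ-1. Its log2 change of -0.14 in the authors' deposited table (SE 0.16) did not pass the test (adjusted p = 0.511), with a 95% interval of -0.45 to 0.18. Both mutant libraries were below both wild-type libraries per size factor, as held for many loci that were not called. A transcript counted at a locus may still come from a disrupted allele.

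An adjusted p stood beside 29212 loci in the authors' deposited table, and 46.7% of them passed 0.05, with 27.6% higher and 19.1% lower in osddm1a/1b. At least 2-fold changes made up 14.6% of tested loci, with 11.7% higher and 2.93% lower. In the authors' deposited table the median change over all tested loci was 0.05 on the log2 scale. Rises had a median of 0.87 and falls a median of -0.48, and 44.4% of called changes were under 1.5-fold. In leaves sampled whole, fewer cells of a type and less RNA per cell cannot be told apart.

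The balance of rises and falls turned over with the mean count. Of loci called at a mean below 10, 94.7% were higher in the mutant, and this share was 79.2% at 10 to 100, 51.1% at 100 to 1000, 48.7% at 1000 to 10000 and 40.4% at 10000 or more, in the authors' deposited table. Restricted to 2-fold changes, rises prevailed in each of these classes. In the authors' deposited table they made up 97.2% of such changes below 10, 84.8% at 10 to 100, 69.2% at 100 to 1000, 66.9% at 1000 to 10000 and 71.4% at 10000 or more. The last share rests on 5 rises and 2 falls.

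The power to call a change also differed between these classes. The smallest change called in the authors' deposited table was 0.71 on the log2 scale below a mean of 10, 0.20 at 100 to 1000 and 0.06 at 10000 or more. In recovered reads the median absolute log2 difference between the 2 mutant libraries was 0.54 below a mean of 10, and between the 2 wild-type libraries it was 0.40. At a mean of 100 to 1000 these were 0.08 for the mutant and 0.08 for the wild type, against a median absolute difference between genotypes of 0.32. In the class below 10 the genotypes differed by 1.79, so in both classes the libraries of a genotype typically lay closer together than the genotypes did.

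The deposited folds are shrunken towards 0 where reads are few. For 2-fold rises at a mean below 10, the median was 1.22 in the authors' deposited table and 4.85 when calculated from recovered reads with 0.5 added to each genotype's normalized mean. At a mean of 100 to 1000 the medians were 1.96 in the authors' deposited table and 2.09 from recovered reads. Among 22420 tested loci with recovered reads, all 5904 called higher had both mutant libraries above both wild-type libraries, and all 3318 called lower had both below. Separation of the libraries was common by itself: it held for 79.3% of these loci, and for 64.8% of the loci that were not called.

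Another test of the same reads, limma on log2 of reads over size factor plus 1, was chosen after the data were seen. It called 4892 loci at least 2-fold higher (21.8% of 22394) and 1249 at least 2-fold lower (5.58%). These included all 3182 and 752 loci that the authors' deposited table called at least 2-fold higher and lower among them. Without 1 of the mutant libraries the limma rises numbered 2902 or 2904, and in all 4 fits that left out a library 2791 of them (57.1%) and 495 of the falls (39.6%) were called.

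A class of loci was read in 1 genotype only. Both mutant libraries had reads and both wild-type libraries had none at 2092 tested loci below a mean of 1000, and 1800 of them were called. The reverse held at 45 loci, of which 35 were called. Of all tested loci 46.7% were called, 27.6% higher and 19.1% lower. Loci read in 1 genotype only were picked by their own reads and reached the test through that genotype alone. Their direction was thus fixed by the choice, and their calls are no further support. The loci read in the mutant alone had 11 to 3027 reads there, with a median of 39, and 584 had 100 or more. Those read in the wild type alone had 11 to 343 reads there, with a median of 19, and 2 had 100 or more. Against a floor of 3 reads over both wild-type libraries, the median bound was at least 12.7-fold higher, and 1375 of the 2092 loci were at least 8-fold higher. The bounds allow for counting error alone, because reads copied by PCR do not stand for separate molecules.

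Among loci with a mean count of 1000 or more, the 2 largest rises were at loci with almost no wild-type reads. That mean is taken over all 4 libraries, so both loci reached it through their mutant reads. LOC_Os07g49350 had 6383 and 4993 reads in osddm1a/1b, against 0 and 0 in Cr-DJ-1. LOC_Os02g37230 had 6291 and 4877 reads in osddm1a/1b, against 1 and 2 in Cr-DJ-1. These were log2 changes of 8.93 and 8.75 in the authors' deposited table. The 2 largest falls left some reads in the mutant. LOC_Os03g45619 had 68 and 59 reads in osddm1a/1b, against 8289 and 6756 in Cr-DJ-1. LOC_Os07g48010 had 39 and 32 reads in osddm1a/1b, against 3539 and 2760 in Cr-DJ-1. Their log2 changes were -6.72 and -6.18 in the authors' deposited table, and no annotation used here names any of the 4.

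Along the chromosomes, 2-fold rises were densest in the middle of the locus order. Locus numbers follow position on each chromosome, so the loci of each of the 12 chromosomes were cut into 10 bins of equal number in that order. Pooled over chromosomes, 8.78% of tested loci in bin 1 were at least 2-fold higher in the mutant in the authors' deposited table. The share was 9.64%, 14.8%, 18.6% and 19.9% in bins 2 to 5, and 14.2%, 13.1%, 10.5%, 8.78% and 6.61% in bins 6 to 10. Falls of this size ranged from 2.09% to 4.23% and were also highest in bin 5.

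Detectable expression varied along the same axis. Loci with a mean of 0 made up 22.3% of all loci in bin 1, 36.5% in bin 5 and 15.9% in bin 10. The median mean count of tested loci was 269 in bin 1, 115 in bin 5 and 378 in bin 10. With a mean count of at least 100 required, 6.37% of loci were 2-fold higher overall and 2.89% 2-fold lower. The share of such loci at least 2-fold higher was then 4.89% in bin 1, 9.45% in bin 4, 7.94% in bin 5 and 4.67% in bin 10. The peak in the middle was thus lower but present among loci with a mean of at least 100. That mean is taken over all 4 libraries, so a locus with few wild-type reads can reach it through its mutant reads alone. The part of low counts in the larger peak was not tested. The plot of bins shows both sets of loci.

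**Figure D1:**
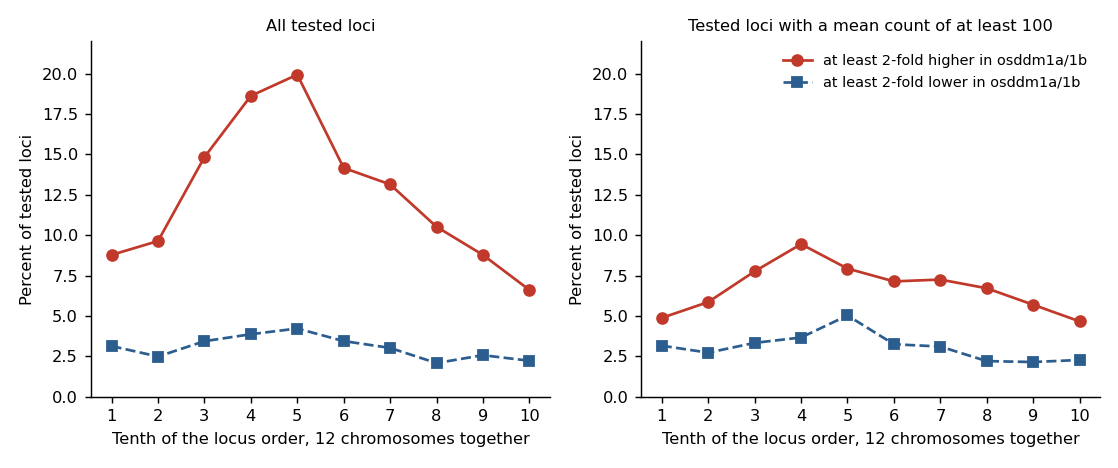
Percent of tested loci at least 2-fold higher (circles) or lower (squares) in osddm1a/1b with an adjusted p below 0.05, by bin of the locus order (10 bins of equal number) pooled over 12 chromosomes. Rises peak at 19.9% in bin 5 over all tested loci and at 9.45% in bin 4 among loci with a mean of at least 100, and falls stay at or below 5.03%.

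The bin with most rises differed between chromosomes. It was bin 4 on chromosomes 1, 5, 10 and 11, bin 5 on chromosomes 2, 6, 7 and 8, bin 6 on chromosomes 3 and 12, bin 3 on chromosome 4 and bin 1 on chromosome 9. The share of tested loci at least 2-fold higher in the richest bin ran from 21.5% on chromosome 5 to 32.9% on chromosome 4. Bin 10 had the fewest rises on chromosomes 3, 4, 5, 6, 8, 9 and 10, with 4.30% on chromosome 6 as the lowest. On chromosome 4, 22.6% to 32.9% of the tested loci of each of bins 1 to 5 were at least 2-fold higher, and 5.88% to 13.3% of those of each of bins 6 to 10. The same stretch of chromosome 4 was poor in expressed loci, with 37.9% to 42.7% at a mean of 0 in bins 1 to 5, against 12.4% to 18.4% in bins 6 to 10. Over the 120 bins of single chromosomes, Spearman's rho between the share of tested loci at least 2-fold higher and the share of loci with a mean of 0 was 0.85. It was 0.53 for rises among loci with a mean of at least 100. Bins share libraries and neighbours, so these are descriptions with no test.

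**Figure D2:**
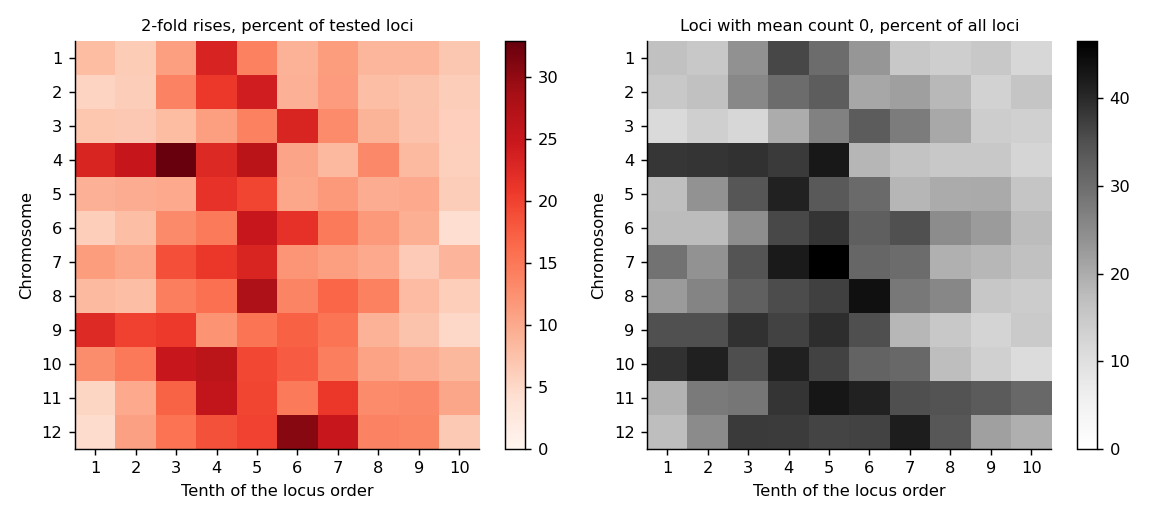
Left, percent of tested loci at least 2-fold higher in osddm1a/1b in each of 10 bins of the locus order (across) of each chromosome (down). Right, percent of all loci with a mean count of 0 in the same cells. Chromosome 4 reaches 32.9% of tested loci in bin 3, and on most chromosomes the dark cells of both maps lie close to each other.

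Whole chromosomes differed less than bins did. The share of tested loci at least 2-fold higher in the authors' deposited table was 14.3% on chromosome 4, 14.2% on chromosome 10, 13.9% on chromosome 11 and 13.7% on chromosome 12. It was lowest, at 9.51%, on chromosome 3 and at 10.1% and 10% on chromosomes 2 and 1. At a mean count of at least 100 the range over chromosomes narrowed to 5.35% on chromosome 6 and 7.59% on chromosome 4. Falls of 2-fold or more ranged from 2.19% on chromosome 3 to 3.36% on chromosome 4, with chromosome 11 apart at 5.07%. On chromosome 11 falls kept that distance among loci with a mean of at least 100, at 5.56% against 2.11% to 3.61% on the other chromosomes. Chromosome 11 also had most loci with a mean of 0, at 33.2%, and chromosome 3 fewest, at 19.2%.

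The peak lists of the series allow a rough view of repressive chromatin per chromosome. Peaks of H3K9me2, a mark of heterochromatin, come from another variety (ZH11 per its label, although the series' file list names Cr-DJ), and those of H3K27me3, the Polycomb mark, from Cr-DJ. H3K9me2 peaks covered 6.09% of chromosome 3, the lowest value, and 8.79% of chromosome 7, the highest. Over the 12 chromosomes, Spearman's rho between H3K9me2 cover and the share of tested loci at least 2-fold higher was 0.37, and 0.02 among loci with a mean of at least 100. For H3K27me3 cover it was -0.29, and -0.36 among those loci. For the share of loci with a mean of 0 it was 0.81, and 0.45 among those loci, and for the median mean count it was -0.82, and -0.31 among those loci. These coefficients describe 12 chromosomes measured in the same libraries and carry no test.

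Windows of 100 consecutive tested loci resolved the pattern further. Over 286 windows, the median was 10 rises and 2 falls of at least 2-fold, and the largest number of rises in a window was 36. Rises outnumbered falls in 276 windows, falls outnumbered rises in 7 and 3 were equal. The windows richest in rises ran from LOC_Os04g16430 to LOC_Os04g20120, with 36 rises and 4 falls, from LOC_Os12g24240 to LOC_Os12g27780, with 33 and 6, and from LOC_Os02g22290 to LOC_Os02g26210, with 32 and 1. The median change of all tested loci in these windows was 0.68, 0.37 and 0.38 on the log2 scale in the authors' deposited table. Those richest in falls also held many rises. LOC_Os11g25720 to LOC_Os11g29230 had 13 falls and 15 rises, LOC_Os09g17120 to LOC_Os09g20040 had 12 falls and 14 rises, and LOC_Os04g27350 to LOC_Os04g30720 had 12 falls and 25 rises.

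Some rises stood in unbroken runs. A run was counted where at least 3 consecutive tested loci of a chromosome were each called and 2-fold changed in the same direction. There were 139 runs of rises with 472 loci, or 13.9% of the 3403 loci 2-fold higher on the 12 chromosomes. There were 17 runs of falls with 52 loci, or 6.09% of 854. Most runs were short: 99 of the 139 runs of rises and 16 of the 17 runs of falls had exactly 3 loci. Chromosome 4 had most runs of rises, with 20, followed by chromosome 8 with 16, and chromosome 6 had fewest, with 7. The order differed when set against all 2-fold rises of a chromosome. Runs held 55 of 235 on chromosome 8, 68 of 374 on chromosome 4, 31 of 279 on chromosome 6 and 40 of 397 on chromosome 1. Neighbouring loci can share a transcript, overlap or be tandem copies, so members of a run are not independent.

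The longest run held 11 tested loci from LOC_Os06g25630 to LOC_Os06g25870 on chromosome 6. It spanned 25 loci of the table, 10 of which had a mean of 0. The median change in the authors' deposited table was 3.22 on the log2 scale, and mean counts lay between 8.27 and 70.1. LOC_Os06g25730 had 152 and 132 reads in osddm1a/1b, against 0 and 0 in Cr-DJ-1. LOC_Os06g25870 had 116 and 109 reads in osddm1a/1b, against 0 and 0 in Cr-DJ-1. LOC_Os06g25680, which together with LOC_Os06g25770 had the most wild-type reads of the run, had 45 and 27 reads in osddm1a/1b, against 1 and 2 in Cr-DJ-1. The 11 tested loci were thus close to unread in the wild type, and both mutant libraries read each of them. These loci were chosen as called 2-fold rises and have low mean counts, so few wild-type reads follow largely from that choice. The other loci of the span had no test. The bound for LOC_Os06g25730 was at least 92.4-fold higher in the mutant, while the shrunken log2 fold in the authors' deposited table was 4.11.

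The next 4 runs of rises had few wild-type reads at most members. Of 4 runs with 5 tested loci, the 2 with the largest median are described, and LOC_Os08g13500 to LOC_Os08g13570 and LOC_Os05g31990 to LOC_Os05g32040, with medians of 2.05 and 1.87 in the authors' deposited table, are the others. The run from LOC_Os04g17120 to LOC_Os04g17200 had 6 tested loci and a median of 3.43 on the log2 scale in the authors' deposited table. Its best-read locus, LOC_Os04g17130, had 231 and 172 reads in osddm1a/1b, against 1 and 0 in Cr-DJ-1. The run from LOC_Os12g24330 to LOC_Os12g24480 had 6 tested loci and a median of 2.37 in the authors' deposited table. There LOC_Os12g24410 had 177 and 143 reads in osddm1a/1b, against 0 and 0 in Cr-DJ-1. The run from LOC_Os01g48080 to LOC_Os01g48120 had 5 loci with consecutive numbers, none of them unread, and a median of 2.81 in the authors' deposited table. LOC_Os01g48120 had 193 and 123 reads in osddm1a/1b, against 1 and 0 in Cr-DJ-1. The run from LOC_Os07g11150 to LOC_Os07g11230 had 5 tested loci, a median of 2.05 in the authors' deposited table, and 1 member read well in both genotypes. That member, LOC_Os07g11150, had 1300 and 991 reads in osddm1a/1b, against 48 and 41 in Cr-DJ-1. Over these runs no locus had its libraries overlap between genotypes. That held for all 5904 recovered loci called higher, so it adds nothing to the calls that define a run. Separation in either direction held for 79.3% of tested loci with recovered reads.

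**Figure D3:**
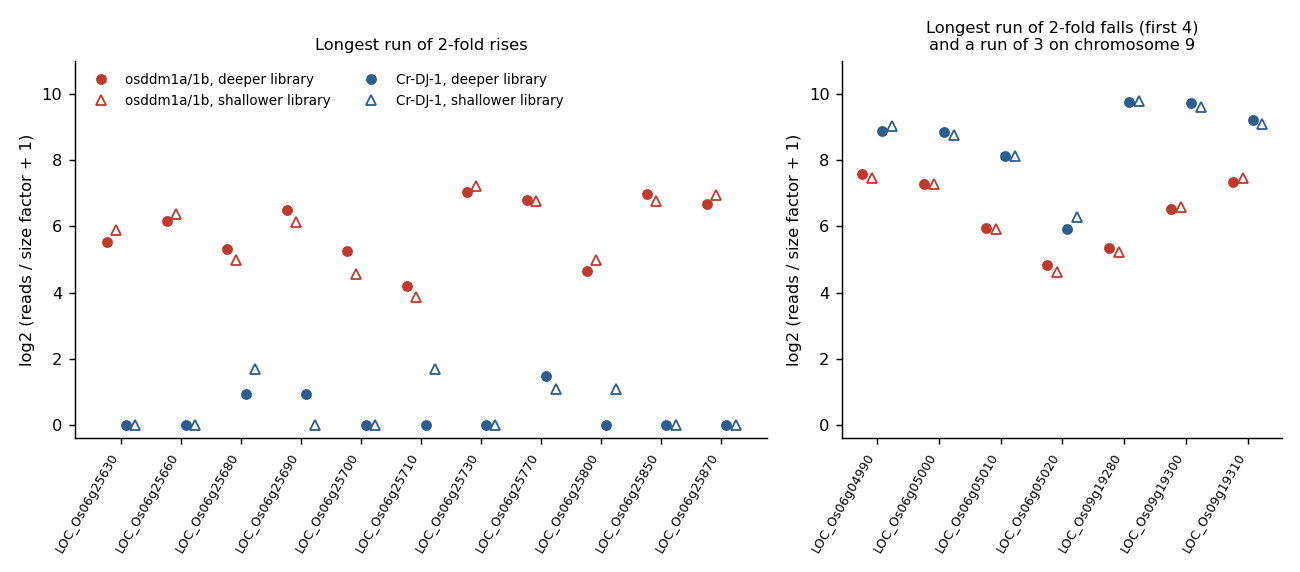
Recovered reads per library, as log2 of reads over size factor plus 1, at the members of the longest run of 2-fold rises (left, 11 loci) and of the longest run of 2-fold falls and a run of 3 falls on chromosome 9 (right). Circles are the deeper and triangles the shallower library of each genotype; in the left panel the wild type has 0 to 2 reads at every locus.

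Runs of falls were shorter than the longest runs of rises. The longest had 4 loci, LOC_Os06g04990 to LOC_Os06g05020, with a median of -1.42 on the log2 scale in the authors' deposited table. LOC_Os06g05010, its largest fall, had 70 and 53 reads in osddm1a/1b, against 310 and 246 in Cr-DJ-1. LOC_Os06g04990 had 219 and 156 reads in osddm1a/1b, against 519 and 467 in Cr-DJ-1. Without the 2-fold limit this run grew to 6 loci, LOC_Os06g04970 to LOC_Os06g05060. Its last member is ELF3-1, a gene of the circadian evening complex.

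The other named runs of falls had 3 tested loci each. In the run from LOC_Os11g18194 to LOC_Os11g18570 the median was -3.36 in the authors' deposited table, and the run spanned 32 loci with 22 unread. LOC_Os11g18570 had 265 and 186 reads in osddm1a/1b, against 2664 and 2137 in Cr-DJ-1. The run from LOC_Os09g19280 to LOC_Os09g19310 had a median of -3.01 in the authors' deposited table. LOC_Os09g19280 had 46 and 32 reads in osddm1a/1b, against 961 and 786 in Cr-DJ-1. The run from LOC_Os01g25670 to LOC_Os01g25688 had a median of -2.78 in the authors' deposited table. LOC_Os01g25679 had 0 and 0 reads in osddm1a/1b, against 215 and 128 in Cr-DJ-1, and was at least 117-fold lower in the mutant. The run from LOC_Os09g13410 to LOC_Os09g13470 had a median of -2.20 in the authors' deposited table. There LOC_Os09g13440 had 4 and 2 reads in osddm1a/1b, against 134 and 114 in Cr-DJ-1.

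A block of loci called higher, with no fold limit, ended beside OsDDM1a. It was singled out after its values were seen. From LOC_Os09g26940 to LOC_Os09g27050, 9 consecutive tested loci were called higher in osddm1a/1b by the authors' deposited table, and their median was 1.07 on the log2 scale, where 27.6% of all tested loci were called higher. LOC_Os09g27050 is the last tested locus before OsDDM1a. With the 2-fold limit only the first 4 loci, LOC_Os09g26940 to LOC_Os09g26980, form a run. Counted with no fold limit, other blocks of 9 rises ran from LOC_Os12g22520 to LOC_Os12g22690 and from LOC_Os05g20954 to LOC_Os05g21110, with medians of 1.71 and 1.06 in the authors' deposited table. Mean counts in this block ranged from 13.2 to 4665. LOC_Os09g26940, with 34 and 29 reads in osddm1a/1b, against 5 and 3 in Cr-DJ-1, and LOC_Os09g26970, with 24 and 21 reads in osddm1a/1b, against 2 and 6 in Cr-DJ-1, were little read in both genotypes.

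LOC_Os09g26960 had 6791 and 5092 reads in osddm1a/1b, against 2521 and 1913 in Cr-DJ-1. LOC_Os09g27010 had 1185 and 982 reads in osddm1a/1b, against 278 and 254 in Cr-DJ-1. LOC_Os09g27050 had 2476 and 1876 reads in osddm1a/1b, against 1152 and 943 in Cr-DJ-1. The log2 change in the authors' deposited table ranged from 0.71 to 1.94 over the 9 loci. The mutant libraries lay above both wild-type libraries at all 9, which adds nothing to their calls. The same held for all 5904 loci called higher among tested loci with recovered reads below a mean of 1000. Separation in either direction held for 79.3% of those tested loci. OsDDM1a itself, next in order, and LOC_Os09g27070 after it did not pass the test.

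The counts beside both DDM1 copies are to be read against all tested loci, of which 27.6% were called higher and 19.1% lower. Of the 12 tested loci before OsDDM1a, 10 were called higher and 0 lower in the authors' deposited table. Of the 12 after it, 4 were called higher and 2 lower. Around OsDDM1b, 3 of the 12 before were called higher and 2 lower, and 1 of the 12 after was called higher and 2 lower. That 1 was LOC_Os03g51390, with 400 and 311 reads in osddm1a/1b, against 121 and 85 in Cr-DJ-1. The median change of the 12 loci before OsDDM1a was 1.02 in the authors' deposited table, against -0.03 for the 12 before OsDDM1b. What moves the loci beside OsDDM1a was not tested.

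**Figure D4:**
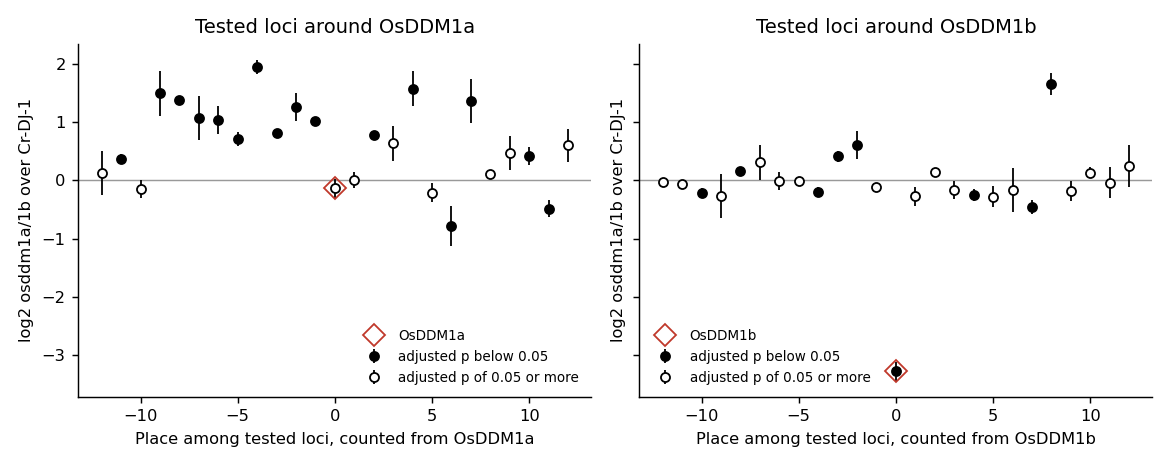
Log2 change with its standard error, from the authors' deposited table, at the 12 tested loci on each side of OsDDM1a (left) and OsDDM1b (right); filled points have an adjusted p below 0.05 and the diamond is the gene itself. A block of 9 filled points at 0.71 to 1.94 ends next to OsDDM1a, which stands at -0.14, while no locus beside OsDDM1b falls as it does (-3.27).

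Over all tested loci, a change tended to be shared with the next locus. After a 2-fold rise, 22.5% of next tested loci were also 2-fold higher, against 11.7% of all tested loci on the 12 chromosomes. The share was 17.1% at 2 places, 15% at 5 places and 14.0% at 10 places. After a 2-fold fall, 10.2% of next tested loci were also 2-fold lower, against 2.93% of all, and this was 6.68% at 2 places, 4.34% at 5 and 2.71% at 10. Of next loci after a rise, 3.15% were falls, against 2.93% of all, and among loci with a mean of at least 100 this was 4.18% against 2.89%. Among loci with a mean of at least 100, the share after a rise was 11.4% against 6.37% of such loci, and after a fall 10% against 2.89%. Pearson's r between the changes of adjacent tested loci was 0.14 over 29171 pairs, and 0.06 over 18357 pairs at a mean of at least 100. Pairs share loci and libraries, so these values are descriptions.

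Named genes of leaf metabolism, growth and the clock were read from 8 lists with 101 tested members, of which 34 were higher and 48 lower in osddm1a/1b in the authors' deposited table. Over all tested loci 27.6% were higher and 19.1% lower. Most members had high counts, where small changes pass the test: of all loci with a mean of 1000 to 10000, 64.5% were called, 2054 higher and 2163 lower of 6538. The counts of called members below are to be read beside those shares, and the lists were chosen with earlier results of these data known.

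In the Calvin cycle and photorespiration list, all 14 members were lower in the mutant by the authors' deposited table. Their median was -0.32 on the log2 scale. Over all tested loci 19.1% were lower, and at a mean of 1000 to 10000 it was 2163 of 6538. Names of 6 of the 14 members were matched to the reference, and all 6 were lower. GLO1, a glycolate oxidase of photorespiration, had -0.58 (SE 0.02) and an adjusted p of 9.09e-139 in the authors' deposited table. RBCS2, a small subunit of Rubisco, had -0.17 (SE 0.01) in the authors' deposited table, at a mean count of 121360. The chloroplast fructose bisphosphatase cpFBP1 stood at -0.37 (SE 0.04) per the authors' deposited table. Its cytosolic counterpart cyFBP1, which serves sucrose synthesis, fell most, with 2863 and 2246 reads in osddm1a/1b, against 6319 and 4928 in Cr-DJ-1.

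In chlorophyll synthesis, 3 of 12 members were higher, 6 lower and 3 did not pass, beside 27.6% higher and 19.1% lower over all tested loci. Their median was -0.12 in the authors' deposited table. GLK1, a transcription factor of chloroplast development, had 1137 and 838 reads in osddm1a/1b, against 2965 and 2331 in Cr-DJ-1 (log2 -1.45, SE 0.07, in the authors' deposited table). PORA, a protochlorophyllide reductase, had 1394 and 1023 reads in osddm1a/1b, against 2441 and 1999 in Cr-DJ-1. CAO1, which makes chlorophyll b, had 655 and 485 reads in osddm1a/1b, against 952 and 729 in Cr-DJ-1. CHLI, a subunit of magnesium chelatase, went the other way, with 5223 and 4102 reads in osddm1a/1b, against 3737 and 3046 in Cr-DJ-1.

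In the gibberellin list, 9 of 14 tested members were lower, 1 higher and 4 did not pass. Over all tested loci 19.1% were lower and 27.6% higher. Of the 9 tested members with a name matched to the reference, 6 were lower and 1 higher. The list's median of -0.44 in the authors' deposited table was the lowest of the 8 lists. The Calvin cycle and photorespiration list had more members lower. CPS1, the first committed enzyme of gibberellin synthesis, had 68 and 74 reads in osddm1a/1b, against 491 and 434 in Cr-DJ-1. Its log2 change was -2.55 in the authors' deposited table, with an SE of 0.19 and an adjusted p of 7.84e-41, and pooled reads per size factor were 6.67-fold lower in the mutant. SD1, the gibberellin 20-oxidase of the semidwarf locus, had 132 and 119 reads in osddm1a/1b, against 467 and 370 in Cr-DJ-1. GID1, the gibberellin receptor, had 3195 and 2446 reads in osddm1a/1b, against 5042 and 4024 in Cr-DJ-1. GID2, the F-box protein that acts with the receptor, was higher at 0.38 (SE 0.03) in the authors' deposited table.

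In the circadian clock list, 5 of 12 members were higher, 4 lower and 3 did not pass, where 64.5% of loci with a mean of 1000 to 10000 were called. PRR95, a pseudo-response regulator, had 3444 and 2724 reads in osddm1a/1b, against 836 and 685 in Cr-DJ-1, and its log2 change was 1.97 in the authors' deposited table (SE 0.07). PRR1, of the same family, had 3162 and 2522 reads in osddm1a/1b, against 2259 and 1818 in Cr-DJ-1, and PRR73 stood at 0.33 (SE 0.03) per the authors' deposited table. ELF3-1 had 1683 and 1434 reads in osddm1a/1b, against 2846 and 2280 in Cr-DJ-1. Clock genes cycle through the day, and the sources used here do not give the hour of harvest, so its part in these differences was not tested.

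In the starch and sucrose list, 8 of 15 members were higher, 4 lower and 3 did not pass, beside 27.6% higher and 19.1% lower over all tested loci. SUS1, a sucrose synthase that cleaves sucrose, rose by 1.26 on the log2 scale (SE 0.02) at a mean count of 71530 in the authors' deposited table, and SUS2 by 0.34 (SE 0.02). SUT1, a sucrose transporter, had 3450 and 2614 reads in osddm1a/1b, against 5281 and 4036 in Cr-DJ-1. The starch branching enzyme BEI had 3907 and 3021 reads in osddm1a/1b, against 4427 and 3535 in Cr-DJ-1.

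In the list of cellulose synthesis, 7 of 11 members were higher, 2 lower and 2 did not pass by the authors' deposited table. Over all tested loci 27.6% were higher and 19.1% lower. The list's median was 0.15. Its 9 cellulose synthases, CESA1 to CESA9, gave 5 of the rises and both falls. The other rises were CSLF6 (0.07), which makes mixed-linkage glucan, and BC1 (0.28), a COBRA-like protein, in the authors' deposited table. CESA6 had 0.95 (SE 0.04), CESA1 0.46 (SE 0.02) and CESA5 0.52 (SE 0.04) in the authors' deposited table. CESA2 had 6376 and 5003 reads in osddm1a/1b, against 4097 and 3333 in Cr-DJ-1. These 4 synthases make cellulose of cell walls.

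The 2 remaining lists were split. In nitrogen assimilation 5 of 11 tested members were higher and 4 lower, and among antioxidant enzymes 5 of 12 were higher and 5 lower, where 64.5% of all loci with a mean of 1000 to 10000 were called in either direction. The ferredoxin-dependent glutamate synthase Fd-GOGAT had -0.45 (SE 0.02), the cytosolic glutamine synthetase GS1;1 0.20 (SE 0.04) and its plastid counterpart GS2 -0.13 (SE 0.02) in the authors' deposited table. NRT2.3, a nitrate transporter, had 53 and 34 reads in osddm1a/1b, against 12 and 10 in Cr-DJ-1. Among antioxidant enzymes, the catalase CATA had 0.55 (SE 0.02) and the chloroplast ascorbate peroxidase APX8 -0.53 (SE 0.03) in the authors' deposited table. The ascorbate peroxidase APX2 had 4762 and 3663 reads in osddm1a/1b, against 3316 and 2610 in Cr-DJ-1. The manganese superoxide dismutase SODA had 3803 and 2920 reads in osddm1a/1b, against 2791 and 2303 in Cr-DJ-1.

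**Figure D5:**
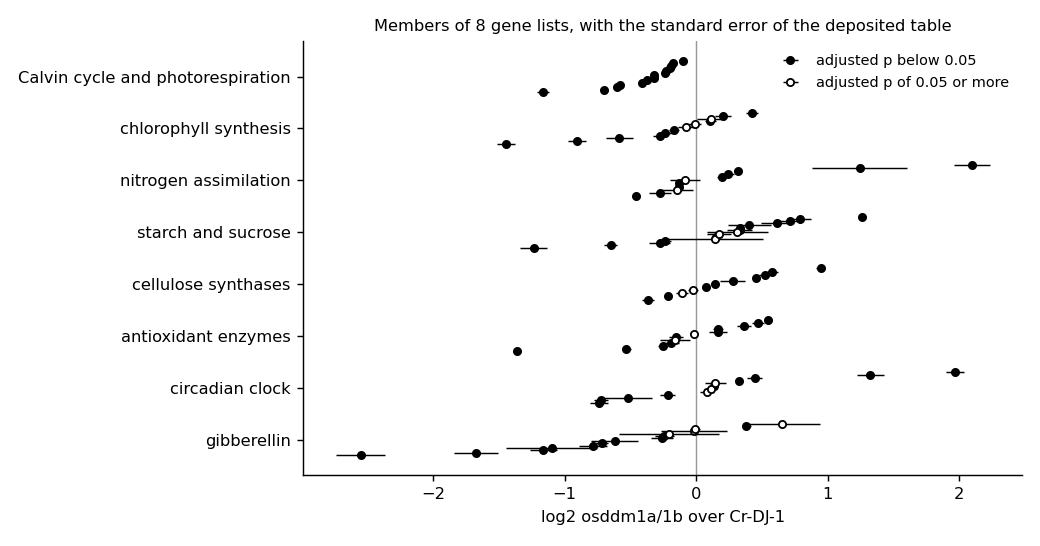
Log2 change of each tested member of 8 gene lists with its standard error, both from the authors' deposited table; filled points have an adjusted p below 0.05. All 14 members of the Calvin cycle and photorespiration list lie below 0, and the gibberellin list reaches -2.55.

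Markers of leaf and of other tissues were read beside these groups. The mature leaf markers did not move one way: CAB2R and CAB1R, chlorophyll-binding proteins, were higher, while RCA, Rubisco activase, and LOC_Os12g19381 were lower at -0.19 and -0.24 in the authors' deposited table. CAB2R had 5386 and 4101 reads in osddm1a/1b, against 1633 and 1351 in Cr-DJ-1. All 3 shoot meristem markers (OSH1, OSH15 and OSH71, homeobox genes of the KNOX class) passed the test upwards, as did 27.6% of all tested loci. Normalized reads of these 3 markers summed to 180 and 159 in osddm1a/1b, against 34.5 and 25.8 in Cr-DJ-1. At low counts most calls were rises, 94.7% of them below a mean of 10 and 79.2% at 10 to 100. Of all tested loci in these classes, 990 of 3856 and 2092 of 6976 were called higher. Root markers overlapped between genotypes. They summed to 498 and 499 in osddm1a/1b, against 488 and 506 in Cr-DJ-1, nearly all from OsLsi1, with 1 read of OsLsi2 in all. Of the 3 endosperm markers, LOC_Os02g15169 had no reads, and GluA2 and Wx summed to 204 and 195 in osddm1a/1b, against 273 and 251 in Cr-DJ-1. The part of a different tissue make-up in the gene lists was not tested.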

How the data were processed

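RNA-seq libraries of 12-day seedling leaves were grouped by their titles. The submitters' processing notes name, without roles, DESeq2 and edgeR, HTSeq, TopHat, Bowtie and Bowtie2 (2.1.0), and Trimmomatic and FastQC; the genome build and the treatment of reads with several positions are not given in the sources used here. The signal in the authors' deposited table is a mean count divided by size factors, and its log2 values are fold changes shrunken towards 0, with a standard error, a Wald score and p-values. Its sign was turned to mutant over wild type. Those columns were recognised from their values, because the deposited table has no header. The length of peaks is as deposited, called by MACS on 1 library each, per the file headers.

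Reads per library were recovered from the deposited mean, and above a mean of 50 by refitting the deposited fold within 1e-07. Of 300 loci tried both ways, 264 gave the same reads, 0 gave other reads and the rest gave no single solution the second way. A solution was found for 0 of 300 false means, and 99.8% of simulated loci were recovered, all correctly. Between 1000 and 5000, reads were sought only for named loci: 60 of 60 were found, and 0 of 60 false means. limma (3.58.1) was run on log2 of recovered reads over size factor plus 1. In libraries simulated with the size factors and mean counts of 22420 loci, it found 80.4% of 2-fold and 100% of 4-fold changes at a mean of at least 100. The simulation had a fixed dispersion and only 51 and 52 such changed loci, while 46.7% of real tested loci were called. These shares therefore need not hold for the real libraries.

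Members and lists were chosen with earlier results of these data known. Genes were named by a rule: both DDM1 copies, up to 4 members per list with the smallest adjusted p, the 5 longest runs each way (ties by the larger median change), 3 windows each way and the 2 largest changes each way at a mean of at least 1000. Loci beside the DDM1 copies, further run members and markers were added after their values were seen. Of 115 pairs of locus and name, 78 matched the reference table (assembly ASM3414082v1) on chromosome and order, and only those names and the DDM1 pair are printed. No sequence is printed, and the peak lists were used for chromosome cover, taking the largest coordinate as chromosome length.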

Additional observations from a re-analysis of the deposited data

How the results depend on the processing

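Stricter limits shortened the lists of calls: 5322 loci were higher and 3309 lower at an adjusted p below 0.001, 3407 and 856 at 2-fold or more, and 4966 and 4989 at a mean of at least 100, where falls outnumbered rises. Requiring a mean of at least 10 or 100 took the share of rises among calls to 59.2% and 53.5% on chromosome 5, and to 51.5% and 43.9% on chromosome 6, where all calls gave 62.9% and 55.6%; at 2-fold or more it was 78.4% and 77.9%. At a mean of at least 100, rises were over 50% of calls on only 6 of 12 chromosomes. Of the tested loci of bin 5 of 10, 14.5% were 2-fold higher when bins were cut over tested loci (bin 4, with 17.3%, was then highest) and 7.94% at a mean of at least 100, where bin 10 had 4.67%. Loci in runs of rises and of falls numbered 186 and 22 with neighbours taken over all loci, 175 and 4 for runs of at least 4, 43 and 0 for at least 5, 2175 and 792 with no fold limit, 99 and 0 at 4-fold, and 52 and 25 at a mean of at least 100. The share of loci sharing a rise was 17.1%, 15% and 14.0% at 2, 5 and 10 places and 11.4% at a mean of at least 100; for falls it was 6.68%, 4.34% and 2.71% at those distances. Of 68 tested list members with matched names, 26 were higher and 29 lower, where all 101 tested members gave 34 and 48. Of all tested loci 27.6% were higher and 19.1% lower.

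limma on recovered reads, added after the data were seen, called 4892 loci 2-fold higher (21.8% of 22394) and 1249 2-fold lower (5.58%), where the deposited folds gave 3182 and 752; all of those 3182 and 752 were among them. With 1 library left out, limma gave 2902 to 4924 loci 2-fold higher and 618 to 1192 lower, 24.0% to 34.9% of the tested loci of bin 5 and 6.29% to 13.8% of those of bin 10 2-fold higher, and 428 to 1220 loci in runs of rises and 16 to 78 in runs of falls. With all 4 libraries limma gave 34.3%, 13.5%, 1181 and 78, where the deposited folds over all counts gave 19.9%, 6.61%, 472 and 52. The limma values cover only tested loci with recovered reads below a mean of 1000, so their shares and those of the deposited folds have different bases. The low ends came without either mutant library: 2902 and 2904 loci were then 2-fold higher. A genotype left with 1 library is assumed to vary like the other, and such a fit has fewer degrees of freedom. No paired analysis was possible because the recovered libraries carry no repeat number. Depth limits changes below a mean of 10, where the smallest change called was 0.71.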
